A study of Mus musculus with 173 samples.

Results

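The mitochondrial ribosomal protein genes are the nuclear genes for the protein parts of the ribosome inside mitochondria. They were taken from the deposited count table by symbol: Mrps or Mrpl followed by a number and an optional a, b or c, with pseudogenes left out. This gave 77 of the 38561 genes of the table, 29 with Mrps names (small subunit) and 48 with Mrpl names (large subunit). Mrps15 and Mrpl12 served as marker genes of the set.

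The RNA-seq libraries, made from polyadenylated RNA, cover 11 tissues taken at an age of 6 months from 16 mice on the C57BL/6 background. The 8 Q175 mice were heterozygous for a knock-in allele with a CAG length of 175 in huntingtin, the gene altered in Huntington's disease, and the 8 controls were wild type; both genotypes had 4 animals of each sex. Each genotype gave 8 libraries per tissue, but wild-type mice gave 7 in gonadal white fat and 6 in skin. Animals with the Q175 allele shared cages with others of their line, whereas the controls were kept beside Q20 mice and carry codes of that line, so genotype, housing and colony cannot be told apart, although the series text calls the controls littermates.

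The mitochondrial ribosome translates the few messenger RNAs of the mitochondrial genome, all of which code for core subunits of the respiratory chain and ATP synthase. Its ribosomal RNAs are made inside mitochondria, whereas its proteins are encoded in the nucleus, made in the cytosol and imported. Some of these proteins descend from bacterial ribosomal proteins and others were gained in the mitochondrial lineage.

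By these origins the set held 16 small-subunit genes with a bacterial counterpart, 10 small-subunit genes specific to mitochondria, 29 large-subunit genes with a bacterial counterpart and 21 large-subunit genes specific to mitochondria. The last class includes Mrps18a and Mrps30, whose proteins sit in the large subunit in spite of their names. Mrps36 stands apart, since its protein is no longer counted as a ribosomal subunit. For Mrpl23, Mrpl48 and Mrps36 the table also holds pseudogenes, so the division of reads between gene and copy is uncertain for these 3. All 77 genes passed the filter on low counts in each tissue.

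Promoter sequences came from RefSeq (build GRCm38.p6) for 68 of the 77 genes, as windows from 250 bases before to 50 bases after the start. The 250 bases before the start are shown for the marker genes Mrps15 (chr4:126046678-126046927) and Mrpl12 (chr11:120484387-120484636), for Mrpl51 (chr6:125191950-125192199), whose libraries separated the genotypes in gonadal fat, and for Mrpl3 (chr9:105053018-105053267) and Mrpl23 (chr7:142532782-142533031), which were called in no tissue. All lie on the plus strand and are written 5′ to 3′. Capitals mark matches on either strand to CCGGAAG (ETS family), the NRF1 motif or GGGCGGG (SP family).
Mrps15: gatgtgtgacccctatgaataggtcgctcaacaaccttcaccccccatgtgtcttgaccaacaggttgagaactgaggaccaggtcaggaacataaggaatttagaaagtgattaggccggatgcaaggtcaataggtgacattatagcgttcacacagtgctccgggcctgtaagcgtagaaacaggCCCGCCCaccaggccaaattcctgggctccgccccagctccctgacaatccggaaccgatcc
Mrpl12: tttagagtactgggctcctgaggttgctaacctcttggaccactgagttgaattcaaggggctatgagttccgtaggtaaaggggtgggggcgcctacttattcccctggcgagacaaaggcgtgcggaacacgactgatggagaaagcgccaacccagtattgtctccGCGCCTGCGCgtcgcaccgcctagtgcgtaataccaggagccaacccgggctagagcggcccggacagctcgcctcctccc
Mrpl51: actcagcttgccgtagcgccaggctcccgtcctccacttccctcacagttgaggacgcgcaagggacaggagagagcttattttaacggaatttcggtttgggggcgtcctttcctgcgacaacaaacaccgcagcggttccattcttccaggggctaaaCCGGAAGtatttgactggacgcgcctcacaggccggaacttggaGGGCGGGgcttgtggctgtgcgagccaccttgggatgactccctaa
Mrpl3: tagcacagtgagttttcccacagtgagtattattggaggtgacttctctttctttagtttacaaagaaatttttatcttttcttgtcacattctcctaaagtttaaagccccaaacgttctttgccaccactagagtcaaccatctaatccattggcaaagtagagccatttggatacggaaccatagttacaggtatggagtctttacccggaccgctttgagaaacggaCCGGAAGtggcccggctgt
Mrpl23: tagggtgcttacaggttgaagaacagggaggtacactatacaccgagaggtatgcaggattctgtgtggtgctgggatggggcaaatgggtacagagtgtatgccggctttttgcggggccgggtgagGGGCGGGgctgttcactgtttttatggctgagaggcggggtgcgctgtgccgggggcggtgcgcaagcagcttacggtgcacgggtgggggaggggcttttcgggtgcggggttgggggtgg

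Over the whole 300-base window, CCGGAAG stood in 36.8% of the 68 promoters, against 18.2% of the 11801 promoters of genes tested in gonadal fat and 9.93% of all 27025 genes in the promoter table. The NRF1 motif stood in 19.1% of the 68, against 10.2% of the tested genes and 5.19% of all. ATGGCGGC (YY1) stood in 17.6% of the 68, against 4.97% and 2.6%, and in the 250 bases before the start alone it was found in 1.47% of the 68. GGGCGGG was found in 42.6% of the 68, 49.6% of the tested genes and 27.9% of all, and TATAAA in 7.35%, 9.25% and 15.7%. Both strands were searched, the motifs may overlap, and a match is a run of letters, not a bound site. Among the promoters shown, CCGGAAG stands before the start of Mrpl51 and Mrpl3 and is missing before the start of Mrps15, Mrpl12 and Mrpl23. Any link between these motifs and the changes in gonadal fat was not tested.

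Levels between genes are compared on the deposited FPKM scale, which divides by gene length and library total. In wild-type mice the summed FPKM of the 77 genes was highest in brown adipose tissue, at 3033 ± 332 (SD, n = 8). Skin followed with 2639 ± 434 (n = 6), gonadal white adipose tissue with 2550 ± 169 (n = 7), heart with 2409 ± 89.8, gastrocnemius muscle with 2197 ± 90.6 and intestinal white adipose tissue with 2099 ± 76.7 (n = 8 each). The nervous tissues were lower: brainstem 1808 ± 235, hypothalamus/thalamus 1687 ± 185, cerebellum 1517 ± 57.8, hippocampus 1486 ± 59.0 and corpus callosum 1378 ± 131 (SD, n = 8 each). The steps from heart to gastrocnemius, to intestinal fat and to brainstem were larger than the SD of either neighbour, and every other step in this order was within 1 SD. Brown fat had the highest mean for 27 of the 77 genes and skin for 19, and corpus callosum had the lowest for 33. This order holds for the FPKM scale, which depends on what else fills the library total. Summed mitochondrially encoded mRNAs had wild-type medians of 406571 CPM in heart, 365297 in brown fat and 39480 in skin. By limma voom, used below, the median log2 difference was -0.11 for heart against gastrocnemius and -0.09 for cerebellum against hippocampus, against the FPKM order.

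**Figure D1:**
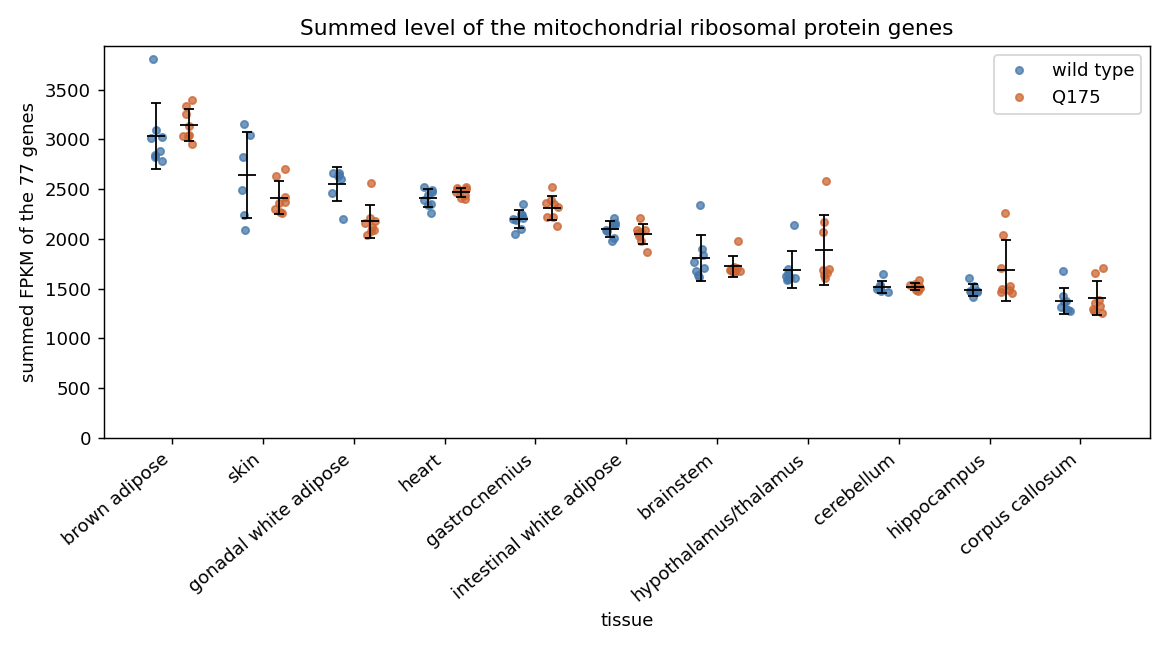
Summed FPKM of the 77 genes (vertical axis) in each library, by tissue (horizontal axis) and genotype (colour); black bars give the mean and SD. Brown adipose tissue is highest at a wild-type mean of 3033, corpus callosum lowest at 1378, and the genotypes overlap in each tissue.

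Mrps15, a small-subunit protein of bacterial origin, had its highest wild-type level in gonadal fat at 54.6 ± 7.46 FPKM and its lowest in hippocampus at 19.3 ± 1.83 (SD). Between them lay intestinal fat at 44.5 ± 5.49, brown fat at 41.3 ± 4.51, skin at 38.2 ± 7.46, gastrocnemius at 32.9 ± 1.54, heart at 27.6 ± 0.749, brainstem at 27.3 ± 4.202, hypothalamus/thalamus at 27.004 ± 2.18, cerebellum at 21.03 ± 1.37 and corpus callosum at 19.5 ± 1.39 FPKM. The steps from intestinal fat through brown fat and skin to gastrocnemius, from heart to hypothalamus/thalamus and from corpus callosum to hippocampus were within 1 SD.

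Mrpl12, a protein of the stalk that contacts translation factors, was highest in brown fat at 84.1 ± 12.9 FPKM and lowest in corpus callosum at 21.1 ± 2.55 (SD). Heart was at 65.6 ± 6.11, gonadal fat at 56.9 ± 6.77, gastrocnemius at 50.9 ± 4.45, skin at 47.3 ± 11.3, intestinal fat at 38.6 ± 7.63, brainstem at 34.8 ± 5.75, hypothalamus/thalamus at 30.9 ± 4.98, hippocampus at 27.3 ± 1.59 and cerebellum at 24.5 ± 1.47 FPKM. From gonadal fat down to hippocampus each step was within 1 SD of one of the neighbours. On the FPKM scale the marker genes thus differed in their order over tissues. Mrps15 was highest in white fat and Mrpl12 in brown fat and heart. By limma voom, used below, both were higher in brown than in gonadal fat. The log2 difference was 0.36 ± 0.090 (SE) for Mrps15 and 1.29 ± 0.11 for Mrpl12. The place of Mrps15 in gonadal above brown fat thus did not hold in that fit.

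By median wild-type FPKM over the tissues, the highest genes were Mrps21 (92.2), Mrpl42 (62.1), Mrpl30 (54.8), Mrpl51 (45.1) and Mrpl20 (43.7), and the lowest were Mrpl1 (6.60), Mrpl57 (5.43) and Mrpl23 (3.37). Mrpl42, specific to mitochondria, varied most between tissues: 243.7 ± 7.31 FPKM in heart, 215.0 ± 13.8 in gastrocnemius and 154.1 ± 27.1 in brown fat, against 33.9 ± 3.22 in corpus callosum. Mrpl51, Mrps28, Mrps35 and Mrps6 came next by the SD of the log2 tissue means. Mrpl51 was at 96.5 ± 14.7 FPKM in brown fat and 19.8 ± 3.40 in corpus callosum. Mrps6 had the widest ratio of highest to lowest tissue mean, 9.70, from 91.5 ± 16.3 FPKM in gonadal fat to 9.43 ± 0.811 in gastrocnemius. Mrps35 was at 40.8 ± 1.46 FPKM in heart and 10.2 ± 1.05 in gastrocnemius, although both are striated muscle. The steadiest genes were Mrps33 (tissue means of 28.4 to 43.2 FPKM), Mrpl58, whose protein releases peptides from stalled ribosomes (22.4 to 36.4), and Mrpl48 (33.8 to 52.7).

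**Figure D2:**
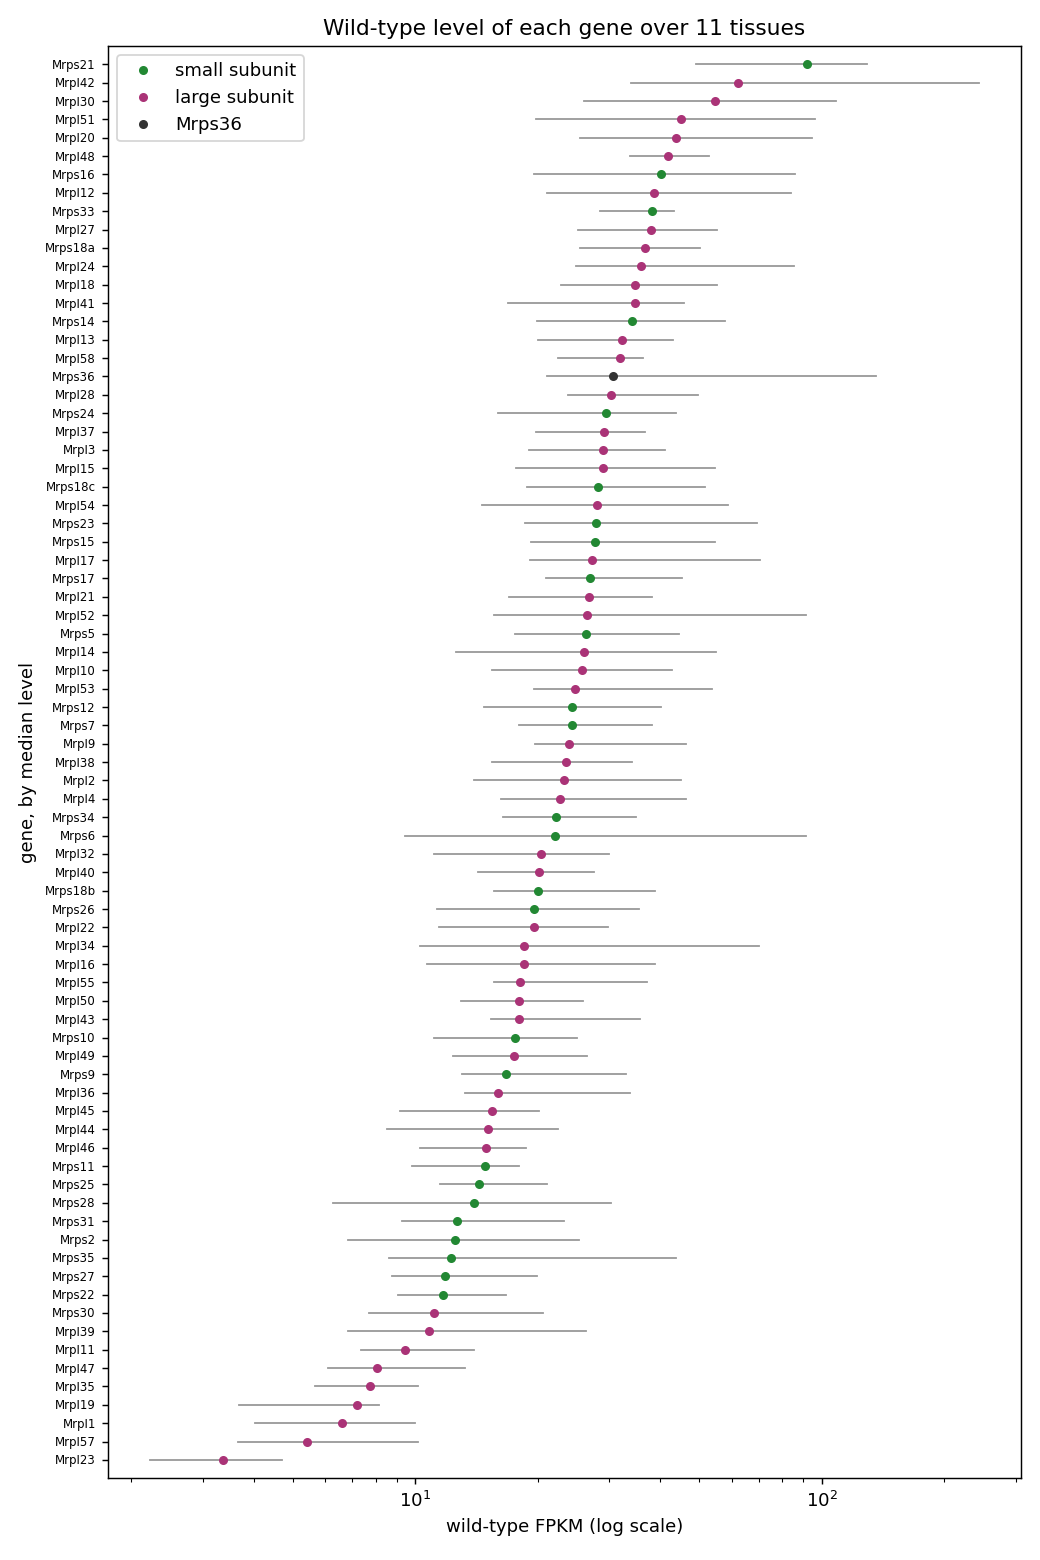
Wild-type FPKM (horizontal log axis) of each of the 77 genes (vertical axis, ordered by median): the dot is the median of the 11 tissue means and the line runs from the lowest to the highest tissue mean. Medians run from 3.37 for Mrpl23 to 92.2 for Mrps21, and Mrps6 spans a ratio of 9.70.

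Mrps18a, Mrps18b and Mrps18c are related to the same bacterial protein, and their products take different places in the ribosome. Mrps18c ranged from 18.8 ± 0.921 FPKM in cerebellum to 51.7 ± 7.36 in skin. Mrps18b ranged from 15.6 ± 1.89 in corpus callosum to 38.9 ± 2.90 in brown fat, and Mrps18a from 25.4 ± 2.33 in corpus callosum to 50.2 ± 7.02 in brown fat. These 3 genes were chosen for their relation, after their values could be seen.

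Tissues were compared within wild-type mice with limma voom, the animal being a correlated block. All 77 genes differed among the 11 tissues at an adjusted p under 0.05, as did 99.8% of the 19928 genes tested, so the count is near the background. Brown against gonadal white fat gave 72 genes higher and 1 lower (background 28.5% higher and 29.5% lower), with a median log2 difference of 0.91 against -0.02 over all genes. The lower gene was Mrps6 (-0.97 ± 0.12 SE), and the largest differences were those of Mrps36 (2.88 ± 0.11), Mrpl34 (1.96 ± 0.098) and Mrpl42 (1.87 ± 0.094). On log2(FPKM + 1) the same contrast gave 41 higher and 19 lower. The share of all genes called on that scale is not given here, so this count cannot be set against a background.

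Heart against gastrocnemius gave 19 genes higher and 33 lower (background 29.4% and 29.9%). Mrps35 was higher in heart by 1.81 ± 0.087, Mrpl39 by 1.31 ± 0.081 and Mrps9 by 0.99 ± 0.082 on the log2 scale, whereas the log2 difference of Mrps10 was -0.85 ± 0.064. Cerebellum against hippocampus gave 6 higher and 22 lower (background 27.3% and 30.4%, 57.7% in all), with Mrps33 at -0.71 ± 0.11 and Mrps5 at 0.37 ± 0.049. The balance of both pairs turned on log2(FPKM + 1), to 34 higher and 17 lower in heart and to 24 higher and 12 lower in cerebellum. These counts too stand without the share of all genes, so a turn of the set and a shift of the whole scale cannot be told apart.

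Over the 11 wild-type tissue means, the genes outside the set whose log2 FPKM followed the mean of the 77 most closely, of 14900 compared, were Chchd2 (Pearson r = 0.964), Abhd11 (0.945), Nit2 (0.944), Ndufa7 (0.943) and Phb2 (0.939). These are descriptions over 11 points that share libraries and depth. The 77 genes had a median r of 0.765 with their own mean, and Mrps16 was nearest to it at 0.967. Mrpl23 ran against the rest (r = -0.861), with 2.22 ± 0.531 FPKM in gonadal fat and 4.71 ± 1.38 in corpus callosum.

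The 77 genes took 0.140 to 0.391% of library totals of 27.98 to 48.02 M (mega) counts, and the lowest of the genes had a median of 83.3 counts per library. At least 1 defining marker of each labelled tissue was present in its libraries. The genes are short, with a median length of 1081 nt against 2587 nt over all genes. A trend on length was therefore measured in each library as the slope of log2 CPM, relative to the tissue mean, on log2 length; slopes ran from -0.283 to 0.175. Huntingtin itself was lower in Q175 mice in each of the 11 tissues (log2 changes of -0.58 to -0.11) and was called in cerebellum, hippocampus, gastrocnemius and heart. Abhd1, which set the genotypes apart in the other animals, fell inside the range of wild-type mice in 10 of the 11 libraries of a single Q175 male, against 1 of 77 libraries of the other Q175 mice. Without that male the called genes were 69 lower in gonadal fat and 4 lower in cerebellum, where 25.1% and 13.3% of all genes were called. Of the 4 in cerebellum, 3 were among the 4 called there with all animals. Each other tissue gave 0, where 2.97% of all genes were called in brown fat and at most 3.66%, in hippocampus.

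Genotypes were compared in each tissue with edgeR on counts, with sex as a term. A gene was called at a Benjamini-Hochberg adjusted p under 0.05 over all genes tested, and changes are log2 of Q175 over wild type ± SE. In gonadal white adipose tissue 70 of the 77 genes fell and none rose, where 16.7% of the 16049 genes tested fell and 15.4% rose (32.1% called). The median log2 change of the 77 was -0.38, against 0.02 over all genes. Elsewhere 1 gene rose in brown fat, 4 fell in cerebellum and none passed in the other 8 tissues. In all, 65 genes were called in 1 tissue, 5 in 2 tissues and 7 in none, and Mrpl38 was the gene called in both directions.

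**Figure D3:**
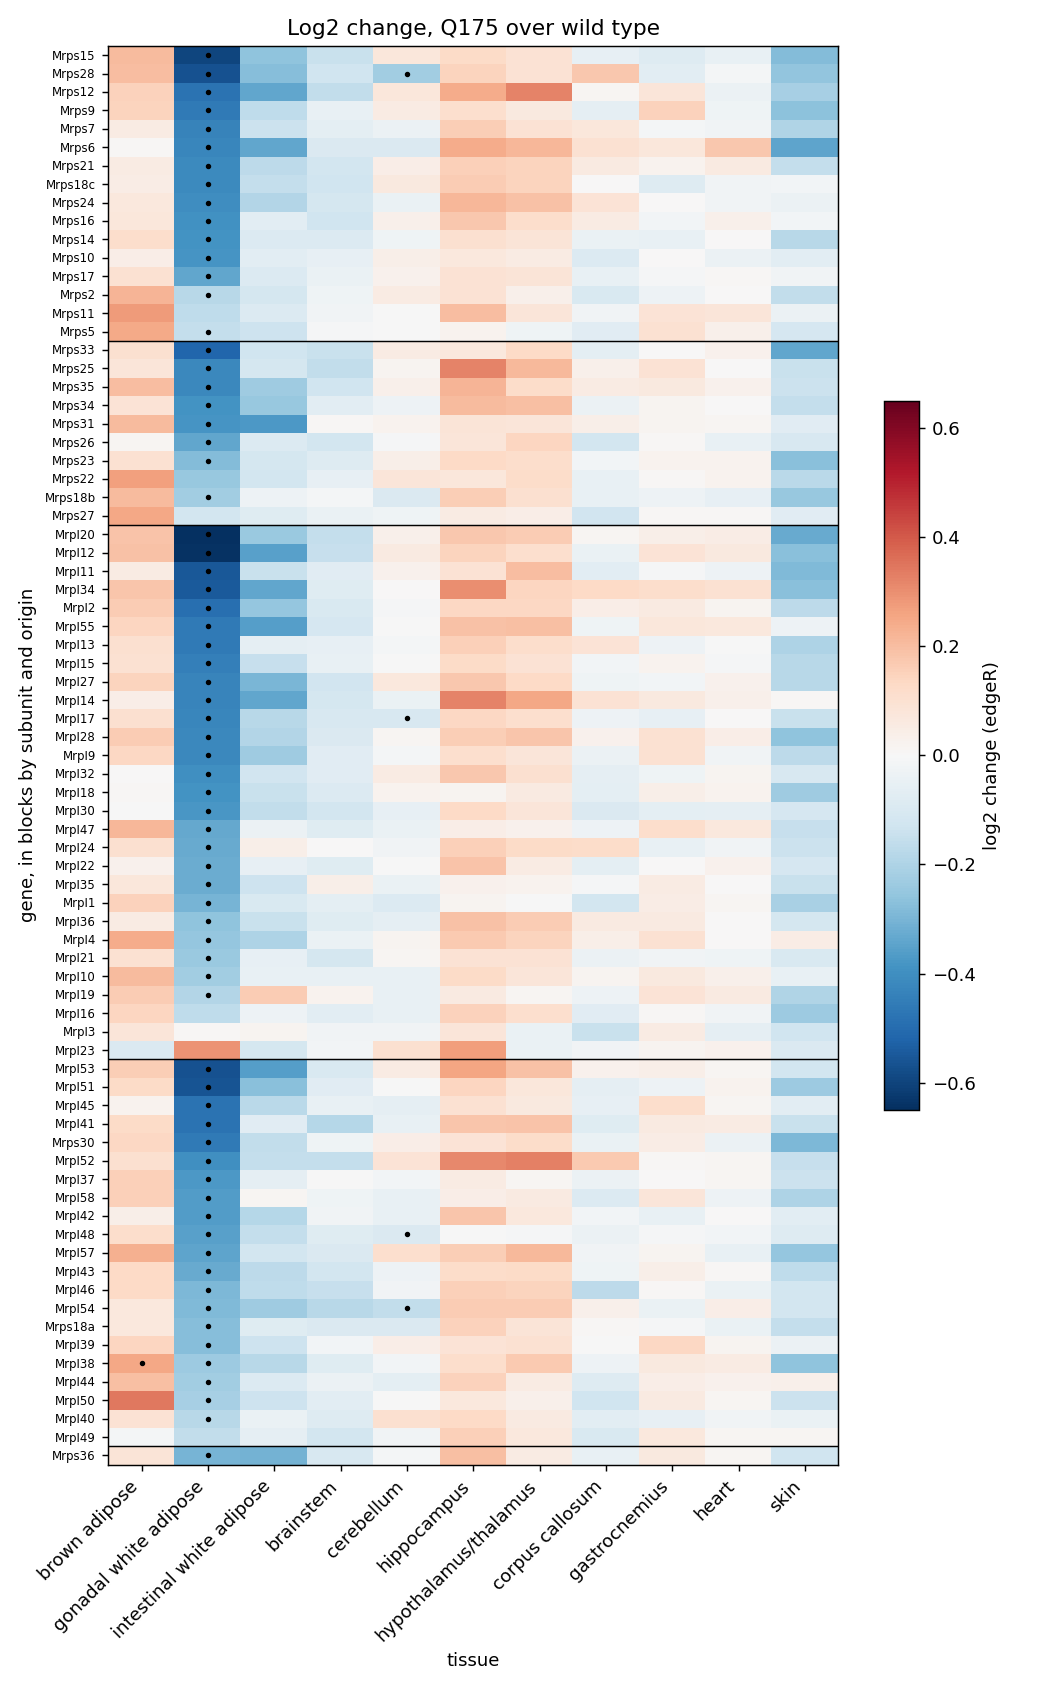
Log2 change of Q175 over wild type (colour) of each of the 77 genes (rows, in blocks by subunit and origin) in each of the 11 tissues (columns); a dot marks an adjusted p under 0.05. Dots stand at 70 genes in gonadal white adipose tissue, 4 in cerebellum and 1 in brown fat.

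Whether the response differed between tissues was tested with limma voom over the libraries of all tissues and both genotypes. The response of 70 of the 77 genes differed between tissues, where 31.5% of the 20662 genes tested did. Mrps15 had the smallest p of the set (adjusted p = 1.25e-08 in limma). The genes that did not pass were Mrpl40, Mrpl49, Mrpl36, Mrps26, Mrpl21, Mrpl3 and Mrpl23. On log2(FPKM + 1) the count was 46, given without the share of all genes called on that scale. The voom fit took 1 residual spread per gene for all tissues, although the spread differed between them. In intestinal fat it called 21.9% of all genes, where edgeR within the tissue called 0%. In cerebellum it called 0.832%, where edgeR called 16.1%. The count and p above rest on that shared spread.

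In gonadal white adipose tissue the fall ran through each class of protein. It covered 15 of the 16 small-subunit genes of bacterial origin (median log2 change -0.41), 8 of the 10 small-subunit genes specific to mitochondria (-0.36), 26 of the 29 large-subunit genes of bacterial origin (-0.39) and 20 of the 21 specific to mitochondria (-0.34). Mrps36 fell as well (-0.30 ± 0.071). Called changes ran from -0.65 in Mrpl20 to -0.16 in Mrps5. In bulk tissue, fewer cells of a type and less RNA per cell cannot be told apart.

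Mrps15 was at 27.99, 34.2 and 43.5 CPM (lowest, median and highest) in the 8 Q175 libraries and at 38.7, 51.6 and 66.3 CPM in the 7 wild-type libraries. The wild-type library inside the Q175 range was male 3, and the next wild-type library stood at 44.4 CPM, above all Q175 libraries. The log2 change was -0.60 ± 0.068 (edgeR, adjusted p = 0.000294). Mrpl12 was at 41.1, 52.9 and 60.7 CPM in Q175 and at 60.4, 76.99 and 99.4 CPM in wild type. The lowest wild-type library was again male 3, just under the highest Q175 library, female 1. Its log2 change was -0.64 ± 0.073 (edgeR, adjusted p = 0.000294).

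Mrpl20, a large-subunit protein of bacterial origin and the gene with the largest fall, was at 40.9, 47.7 and 59.3 CPM in Q175 and at 56.3, 73.6 and 85.5 CPM in wild type. The groups met at wild-type male 3 and Q175 female 1, and the log2 change was -0.65 ± 0.083. Mrpl51, specific to mitochondria, was at 53.2, 58.2 and 61.997 CPM in Q175 and at 68.6, 89.4 and 97.5 CPM in wild type. These groups did not overlap, and the log2 change was -0.56 ± 0.069. Mrpl15 and Mrpl30, both of bacterial origin, had log2 changes of -0.44 ± 0.057 and -0.38 ± 0.051. For 3 of the 77 genes, Mrpl51, Mrps18a and Mrpl19, all Q175 libraries lay below all wild-type libraries, which held for 0.891% of the genes tested.

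**Figure D4:**
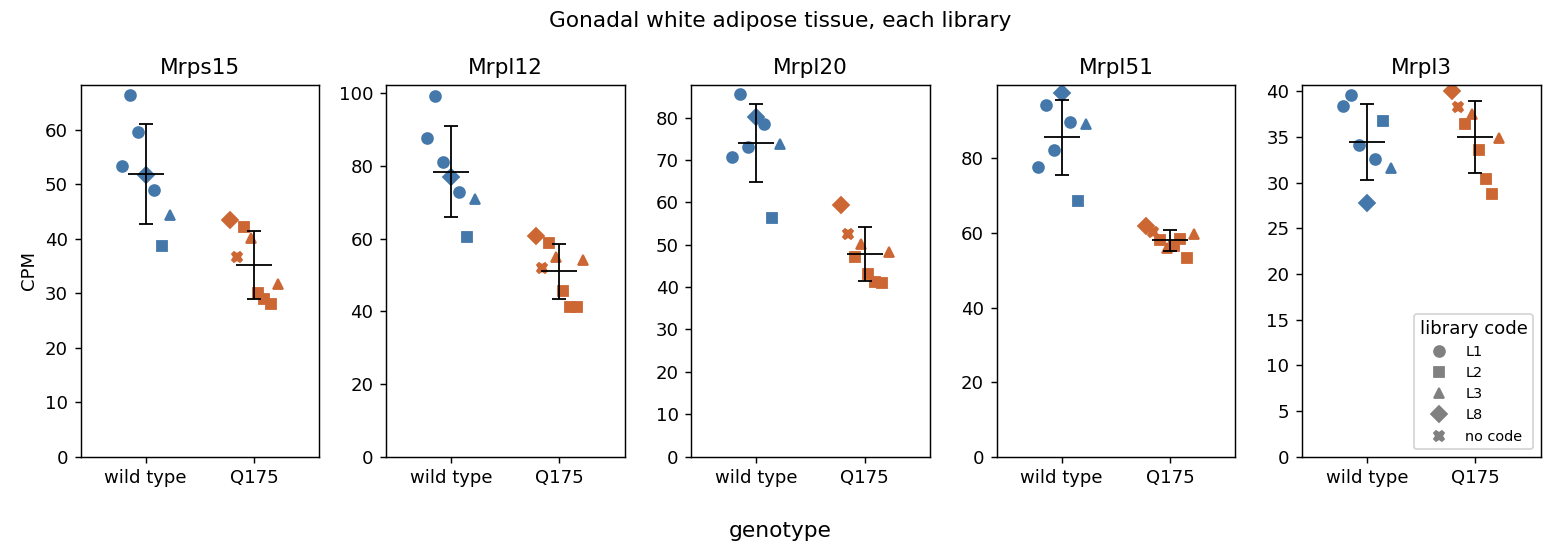
CPM (vertical axes from 0) of Mrps15, Mrpl12, Mrpl20, Mrpl51 and Mrpl3 in each gonadal white adipose library by genotype (horizontal axis); symbols give the library code, and black bars the mean and SD. Mrpl51 separates the genotypes (61.997 CPM at most in Q175, 68.6 at least in wild type), Mrpl3 does not, and the wild-type square (code L2) is male 3.

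The Mrps18 paralogs fell together: the log2 change was -0.41 ± 0.073 for Mrps18c, -0.28 ± 0.040 for Mrps18a and -0.23 ± 0.057 for Mrps18b. Of the 7 genes that did not pass, 5 had negative changes: Mrps22 (-0.25 ± 0.10), Mrps11 (-0.17 ± 0.081), Mrpl16 (-0.17 ± 0.080), Mrpl49 (-0.16 ± 0.061) and Mrps27 (-0.12 ± 0.048). Mrpl3, a core protein of the large subunit, was at 28.7, 35.6 and 40.1 CPM in Q175 and at 27.8, 34.1 and 39.5 CPM in wild type, so the groups covered nearly the same range (log2 change 0.01 ± 0.063, adjusted p = 0.953 in edgeR). Mrpl23, whose protein lies at the exit of the peptide tunnel, had a median of 1.88 CPM in Q175 and 1.62 CPM in wild type (log2 change 0.29 ± 0.21). These 7 were singled out after their values were seen.

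The rest of the mitochondrial gene expression machinery was counted from lists, to be read against the 16.7% of all genes that fell in this tissue. Mitoribosomal genes with other names fell in 5 of 5 cases (median -0.36), with Aurkaip1 at -0.55 ± 0.070, Ptcd3 at -0.36 ± 0.053 and Dap3 at -0.27 ± 0.048. Translation factors fell in 4 of 13 (median -0.17), led by Tsfm, the exchange factor of the elongation factor Tu (-0.49 ± 0.076). Aminoacyl-tRNA synthetases and related enzymes, which charge tRNAs, fell in 4 of 22 (median -0.11), a share near that background; Ears2 was at -0.27 ± 0.063. Ribosome assembly factors fell in 8 of 22 (median -0.18), among them Ddx28 (-0.39 ± 0.077) and Malsu1 (-0.36 ± 0.071). Genes of mitochondrial DNA transcription and upkeep fell in 6 of 11 (median -0.24), with Tfam, which packs mitochondrial DNA, at -0.24 ± 0.064. No gene of these 5 lists rose.

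Genes of mitochondrial protein import fell in 11 of 12 (median -0.34), with Timm50 at -0.42 ± 0.052. Nuclear genes of the respiratory chain fell in 72 of 82 (median -0.49), with Uqcr10 at -0.68 ± 0.073, and the mitochondrially encoded mRNAs, which are the templates of this ribosome, in 13 of 13 (median -0.70), with mt-Nd1 at -0.79 ± 0.14. Cytosolic ribosomal protein genes fell in 36 of 79 (median -0.24), with Rplp2 at -0.73 ± 0.14. Among 8 regulators of mitochondrial biogenesis, the nuclear receptor Esrra fell (-0.40 ± 0.076) and Gabpa, a subunit of the ETS-family factor GABP, rose (0.14 ± 0.051).

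Markers of cell makeup moved with genotype in these gonadal libraries. The summed CPM of 6 white adipocyte markers was 16315 to 31898 in Q175 and 28117 to 36780 in wild type, with 3 genes lower and 1 higher. The sum of 7 macrophage markers was 459.6 to 606.8 CPM in Q175 and 207.8 to 563.2 in wild type (4 higher), and that of 7 genes listed for meninges 2753 to 4209 and 1614 to 3239 CPM (6 higher). Of 10 epididymal markers 2 passed the filter, with sums of 760.4 to 3025 CPM in Q175 males 2, 3 and 4 and at most 9.29 CPM in the other libraries. With the white adipocyte sum as a term in the model, 0 of the 77 genes and 0 of the 16049 genes tested passed, and the median log2 change of the 77 was -0.23. With the macrophage sum as a term, 0 of the 77 and 5 of all genes passed, at a median of -0.29. Without the 3 Q175 males with epididymal transcripts 48 of the 77 fell, where 9.37% of all genes were called. The part of cell makeup in the fall was not tested further.

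The library codes, an L number whose meaning no source used here states, were nearly aligned with genotype in gonadal fat. The number was used as a code only where the label also held a D number. All libraries of a tissue without a D number formed 1 level, so the code as a term does not adjust for their L numbers. In gonadal fat that level held 1 library, of Q175, at -0.08 on the scale described next. Values within codes are given as the median over the 77 genes of a library's log2 CPM minus the tissue mean of each gene. Code L1 held 4 wild-type libraries alone, at 0.22 to 0.37. In L2 the 4 Q175 libraries lay at -0.32 to -0.08 and the wild-type library, male 3, at -0.06. In L3 the 2 Q175 libraries lay at -0.23 and -0.10 and the wild-type library at 0.09, and in L8 the Q175 library was at 0.12 and the wild-type library at 0.19. Within each code that held both genotypes the Q175 libraries were lower, but each such code held 1 wild-type library, a male. The Q175 library of L8 was a female. In L2 the length slopes, described below, were 0.064 to 0.121 in Q175 and 0.030 in wild type. Code, sex, slope and genotype cannot be told apart in these values. With the code as a term 14 of the 77 genes fell, where 3.5% of all genes were called, and Mrps15 and Mrpl12 had log2 changes of -0.48 and -0.51 (edgeR, adjusted p = 0.0302 for both).

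Length slopes also moved with genotype, at -0.105 to 0.121 in Q175 and -0.137 to 0.030 in wild type. With the length trend removed 68 of the 77 genes fell, 66 of them among the 70, where 38.5% of all genes were called. Without the libraries beyond a slope of 0.1 in size 37 fell, where 3.87% of all were called. Those libraries were Q175 female 1, Q175 males 2, 3 and 4 and wild-type males 1 and 2. The 3 Q175 males are the ones with epididymal transcripts, so the fit without those transcripts left out the same males. In both fits male 1 was the only Q175 male left. On log2(FPKM + 1) 46 fell at a median of -0.21; that scale moved the median of all genes to 0.12, and 5007 of 5945 called genes were then higher, against 2467 of 5148 on counts and 1297 of 6172 with the length trend removed. In females alone 8 of the 77 genes fell (3.64% of all genes called) and in males alone 59 (19.5% called), at medians of -0.30 and -0.43. The difference between the sexes, tested as an interaction in edgeR, passed for 0 of the 77 genes (1 at an unadjusted p under 0.05), where 0.231% of the genes tested passed and 12.6% had such a p.

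**Figure D5:**
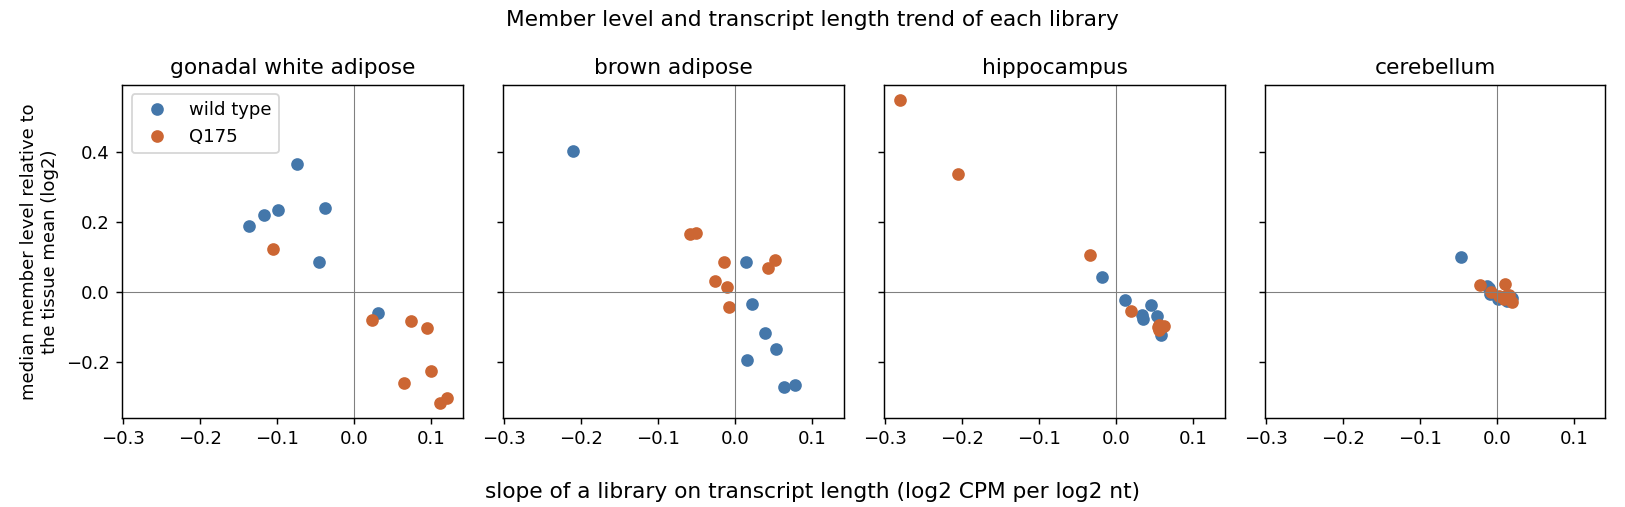
Median level of the 77 genes relative to the tissue mean (vertical axis, log2) against the slope of each library on transcript length (horizontal axis, log2 CPM per log2 nt), in 4 tissues; colours give the genotype. The hippocampus library with the lowest slope, -0.281, has the highest level, 0.55, and in gonadal fat the Q175 libraries reach higher slopes and lower levels than the wild-type ones.

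In brown adipose tissue 1 of the 77 genes rose and none fell, where 0.569% of the genes tested rose and 4.85% fell (5.41% called). It was Mrpl38, a large-subunit protein specific to mitochondria, at 49.9, 54.4 and 57.4 CPM in Q175 and at 40.4, 44.5 and 56.3 CPM in wild type, with overlapping groups. The log2 change was 0.25 ± 0.071 (edgeR, adjusted p = 0.0496), and the call was lost on leaving out any one of 11 of the 16 libraries. Of the 77 genes 74 had a positive sign, with a median of 0.12 against -0.01 over all genes, and 14 of the 77 had an unadjusted p under 0.05, where 17.2% of the genes tested did. Mrps15 was at 0.20 ± 0.096 (adjusted p = 0.284) and Mrpl12 at 0.19 ± 0.11 (adjusted p = 0.406) in edgeR. In this tissue 3 aminoacyl-tRNA synthetase genes of 22 and 1 translation factor gene of 13 rose. Of 83 nuclear respiratory chain genes 3 fell, to be read against the 4.85% of all genes that fell. The median of that list was 0.13, of the same sign as that of the 77.

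The count in brown fat turned on 1 library. Wild-type male 1 had a length slope of -0.210, 158.2 CPM of Mrpl12 against 86.3 to 119 CPM in the other wild-type libraries, and 22216 CPM of summed muscle fibre markers. Without it 33 of the 77 genes rose, at a median of 0.21, where 9.22% of the 14679 genes tested were called in either direction. With the length trend removed 22 of the 77 and 759 of the 14586 genes tested rose. The muscle sums were 83.5 to 22216 CPM in wild type and 62.1 to 995 CPM in Q175, and 8 of the 14 markers were called lower in Q175. With the muscle sum as a term, or without the 5 wild-type libraries richest in muscle, 0 of the 77 genes passed, at medians of 0.17 and 0.23, and 1 and 4 of all genes did. The part of muscle in these values was not tested further.

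In cerebellum 4 of the 77 genes fell and none rose, where 8.11% of the genes tested fell and 7.94% rose (16.1% called). Mrps28, a small-subunit protein, was at 4.62, 5.15 and 6.41 CPM in Q175 and at 5.60, 5.96 and 6.66 CPM in wild type, with overlap (log2 change -0.23 ± 0.064, adjusted p = 0.0185 in edgeR). Mrpl54 was at -0.16 ± 0.051, Mrpl17 at -0.10 ± 0.034 and Mrpl48 at -0.09 ± 0.029. Mrps28 stayed called on leaving out any one library, whereas the calls of Mrpl54 and Mrpl48 were lost in 11 of 16 such fits and that of Mrpl17 in 12. None of the 4 passed with the library code as a term, where 14.9% of all genes were called. In that fit the level without a D number held 4 libraries of each genotype. All 4 also fell in gonadal fat, where 70 of the 77 genes did. Oligodendrocyte markers moved with genotype in the same libraries: 8 of 8 were called lower, with sums of 3201 to 4278 CPM in Q175 and 4641 to 5577 in wild type that did not overlap, and their part in these calls was not tested. Mrps15 (0.07 ± 0.039) and Mrpl12 (0.06 ± 0.037) did not pass.

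In the other 8 tissues 0 of the 77 genes passed in edgeR; DESeq2 called 1 in skin and 0 in the others. Intestinal white adipose tissue, the other white fat depot, had a median of -0.14 against -0.03 over all genes. Of the 77 genes 73 had a negative sign and 10 an unadjusted p under 0.05. Of the genes tested 7.77% had such a p and 0% were called. Makeup varied widely between these libraries. White adipocyte sums were 3687 to 21586 CPM in Q175 and 4847 to 23112 in wild type. Lymphocyte sums were 119.6 to 3211 and 925.7 to 3153 CPM, and pancreatic acinar sums 3.65 to 67.7 and 4.09 to 24979 CPM. The part of makeup was not tested. Mrps15 was at 25.99, 33.8 and 50.7 CPM in Q175 and at 32.95, 39.1 and 58.0 CPM in wild type, with wide overlap (-0.26 ± 0.15), and Mrpl12 was at -0.35 ± 0.17. Mrps12, a protein near the decoding site, had the smallest p (-0.34 ± 0.12, adjusted p = 0.595 in edgeR), and Mrpl9 the next (-0.23 ± 0.086). The median SE of the 77 was 0.10 in this tissue and 0.066 in gonadal fat.

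Skin, where 6.53% of the genes tested were called, had a median of -0.14 against -0.05 over all genes, and 7 of the 77 had an unadjusted p under 0.05, as did 27.4% of the genes tested. Mrps30 was at 23.3, 23.8 and 26.7 CPM in Q175 and at 22.6, 31.4 and 35.3 CPM in wild type (-0.29 ± 0.099, adjusted p = 0.0822 in edgeR). Mrps6 was at -0.35 ± 0.13, Mrps15 at -0.28 ± 0.13 and Mrpl12 at -0.27 ± 0.14. Without wild-type male 3, 3 of the 77 genes were called lower, where 12.4% of all genes were called.

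In hippocampus (background 4.56% called) 76 of 77 genes had a positive sign, at a median of 0.14, and 12 had an unadjusted p under 0.05, as did 21.7% of the genes tested. Mrpl14 was at 0.32 ± 0.11 (adjusted p = 0.1001 in edgeR) and Mrps35 at 0.22 ± 0.085. Q175 females 3 and 4 had length slopes of -0.281 and -0.206 and member levels of 0.55 and 0.34, and without the libraries beyond a slope of 0.1 in size the median was 0.02. Without Q175 female 2, 2 of the 77 genes were called higher, where 7.76% of all genes were called. In hypothalamus/thalamus (background 0.574%) the median of 0.10 was -0.01 without such libraries; Mrpl57 (0.21 ± 0.090) and Mrps12 (0.32 ± 0.15) had the smallest p. In brainstem (background 3.07%) the median was -0.08, and -0.03 without wild-type female 3, whose slope was -0.213; Mrpl41 was at -0.18 ± 0.069 and Mrps35 at -0.13 ± 0.053. The counts at an unadjusted p under 0.05 were 1 of the 77 in hypothalamus/thalamus and 7 in brainstem, where 13.7% and 14.2% of the genes tested had such a p.

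Corpus callosum (background 0.0544%), gastrocnemius (0.0213%) and heart (0.0549%) had medians of -0.03, 0.02 and 0.01, with 1 of the 77 genes at an unadjusted p under 0.05 in each, where 19%, 6.3% and 7.82% of the genes tested had such a p. Mrpl3 (-0.15 ± 0.060) and Mrpl50 (-0.13 ± 0.062) had the smallest p in corpus callosum, Mrps25 (0.09 ± 0.042) and Mrpl39 (0.14 ± 0.065) in gastrocnemius, and Mrps6 (0.18 ± 0.078) and Mrpl34 (0.10 ± 0.062) in heart. In heart the 77 changes lay between -0.06 and 0.18, at a median SE of 0.047. Over these 3 tissues, hippocampus, hypothalamus/thalamus and brainstem, Mrps15 lay between -0.15 and 0.13 and Mrpl12 between -0.15 and 0.14. The interaction between sex and genotype passed for no gene of the set in the 10 tissues besides gonadal fat (background 0% in each). In hippocampus 44 of the 77 had an unadjusted p under 0.05, where 21.7% of the genes tested did. Q175 females 3 and 4, with length slopes of -0.281 and -0.206, were among the 4 Q175 female libraries of that test. Their part in this count was not tested.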

How the data were processed

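RNA-seq libraries of 11 tissues were used one by one (173 in all), grouped by tissue, genotype and sex as the labels give them. The authors deposited a table of estimated counts per gene and library, not scaled between libraries, and one of FPKM values, which the authors scaled to gene length and library total. Per the submitters' processing notes, CASAVA 1.8.2 was among the tools. Not given in the sources used here were the aligner, the counter, the genome build and strandedness. Of the 38561 gene identifiers 36639 matched a symbol. Of the counts of the 77 genes, 40.1% were not whole, and counts were rounded. Precision is limited by 6 to 8 animals a group.

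Each tissue was fitted with edgeR 4.0.16 (R 4.3.3; TMM, filterByExpr by genotype, robust quasi-likelihood, sex and genotype as terms), with Benjamini-Hochberg adjustment over all genes tested. Tissues were compared with limma 3.58.1 (voom, the animal as a block with an estimated correlation of 0.0331 over all libraries and 0.0275 in wild type). CPM values are TMM-scaled; FPKM alternatives used log2(FPKM + 1) or log2(FPKM + 0.1). DESeq2 1.42.0 was an alternative. The scripts were tested on simulated counts. Libraries of a group were compared by chi-square, and none were duplicates (lowest mean 4.22 per gene).

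The 77 genes, the gene lists and the tests were chosen with earlier results of these data known. The text names Mrps15 and Mrpl12 in every tissue, up to 6 called genes per direction and tissue by p (where none was called, the 2 with the smallest p), the 5 most and 3 least variable and the 5 highest and 3 lowest wild-type genes, and called genes of each list by p; others are named as chosen afterwards. Some alternatives changed more than 1 choice (the length trend with the replicate block, FPKM with no filter, voom over all tissues); terms for marker sums, each sex alone and left-out groups of libraries were added after seeing the data.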

Additional observations from a re-analysis of the deposited data

Results flagged for a closer look

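Single libraries stood apart from the rest of their group of 8 by Dixon's test at the 95% level in 10 of 66 cases tested; chance flags about 1 in 20 groups. In brown adipose tissue, wild-type male 1 had 158.2 CPM of Mrpl12, where the others had 86.32 to 119. In brainstem, Q175 female 2 had a median level of the 77 genes of 0.1005 above the tissue mean on the log2 scale (others -0.08912 to -0.02754) and 24.49 CPM of Mrps15 (others 19.92 to 22.03). Brainstem wild-type female 3 had a median level of 0.3907 (others -0.07301 to 0.1093), 31.81 CPM of Mrps15 (others 21.24 to 24.75) and 60.9 CPM of Mrpl12 (others 39.67 to 49.36).

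In cerebellum, wild-type male 3 had a median level of 0.0989 (others -0.02588 to 0.01622). In hypothalamus/thalamus, wild-type male 2 had a median level of 0.2622 (others -0.1113 to -0.05637) and 55.74 CPM of Mrpl12 (others 35.39 to 41.66). In corpus callosum, wild-type female 1 had a median level of 0.3194 (others -0.07254 to 0.02471). The libraries named for brown fat, brainstem (wild type), hypothalamus/thalamus and corpus callosum had length slopes of -0.210, -0.213, -0.136 and -0.164.

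The response to Q175 differed between tissues for 70 of the 77 genes by the voom interaction test, where 31.5% of the 20662 genes tested did.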

How the results depend on the processing

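Percentages in brackets give the share of all genes called in the same fit. In gonadal fat the fall kept its direction under all alternatives that called genes, but its count moved. From 70 it went to 14 with the library code as a term (3.5%), 46 on log2(FPKM + 1) (37%) or log2(FPKM + 0.1) (38.1%) and 40 with no filter on FPKM (19.7%). It was 37 without libraries beyond the slope limit (3.87%) and 8 in females alone (3.64%). It was 0 with the white adipocyte (0%) or the macrophage sum (0.0312%) as a term. Leaving out 1 library gave 68 to 73 (25.1 to 36.9%). In brown fat the count of 1 became 4 with DESeq2 (8.26%), 22 with the length trend removed (9.54%) and 28 with that and the replicate block (7.1%). It was 33 without libraries beyond the slope limit (9.22%) and 23 with voom over all tissues (7.63%). It was 0 with no sex term (4.54%), on FPKM (3 settings, 0.501 to 5.24%) and with the muscle sum as a term (0.00685%). It was also 0 without the 5 muscle-rich libraries (0.0265%), in females alone (0%) and in males alone (2.66%). With the library code as a term it stayed 1 (1.51%), now Mrpl50 (adjusted p = 0.0292 in edgeR) in place of Mrpl38 (0.0822). Leaving out 1 library gave 0 to 33 (2.14 to 9.22%). In cerebellum the count of 4 became 1 with no filter (8.78%), 2 on FPKM (3 settings, 7.75 to 14.5%) and 0 with voom over all tissues (0.832%). With the length trend removed 2 genes were higher and 2 lower (4 in all, 18.3%). The count turned to 1 higher gene with the library code as a term (14.9%), and to 1 higher with the length trend removed and the replicate block (15.5%). Leaving out 1 library gave 1 to 4 (13 to 16.4%). Voom over all tissues called 10 in intestinal fat and 3 in skin (21.9% and 19.3% of all genes called), and DESeq2 called 1 in skin (16.5%); leaving out 1 library gave 0 to 3 in skin, 0 to 2 in hippocampus and 0 in the other tissues. The tissue response passed for 46 genes on FPKM. In wild type, heart against gastrocnemius gave 51 on FPKM with the balance reversed, and cerebellum against hippocampus 36 with the balance reversed and 50 with edgeR on the pair. For the tissue response and these wild-type pairs the share of all genes called under the alternatives is not given here. The causes were not tested.

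Replicate numbers mark different animals in the 2 genotypes and so share only a number: correlations of same-numbered libraries ran from -0.46 to 0.75, and each library correlated best with its own number in 0 to 5 cases a tissue. With the replicate number as a block 62 genes fell in gonadal fat, 0 passed in brown fat and 0 in cerebellum. Of all genes tested, 17.9%, 1.17% and 14.1% were called in these fits. For the genes named, 1261 of 1373 values under alternatives kept call and direction, 97 lost the call (62 in cerebellum, 21 in brown fat, 14 in gonadal fat), 15 gained one and 0 turned with a call. Most of these values belong to genes not called in the main fit, so the pooled count does not measure how stable the calls are. Mrpl38 in brown fat lost its call in 21 of 33 alternatives. In cerebellum Mrpl17 lost it in 22 of 28, Mrpl48 in 20, Mrpl54 in 16 and Mrps28 in 4. Each called gene named in gonadal fat lost it in 2 or 3 of 33. No library lay beyond the slope limit in cerebellum, gastrocnemius, heart or skin, so that alternative was not run there.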
